A study of Drosophila melanogaster with 4 samples.

Results

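The base of arm 3R is the 2 Mb of assembled sequence nearest the centromere on a right chromosome arm of the fruit fly Drosophila melanogaster, positions 1 to 2000000 of 3R in FlyBase release 5. Regions of this interval enriched for Su(var)3-9 were read from ChIP-seq, in which fragments of chromatin are collected with an antibody and their DNA is sequenced. A region belonged to the base when its midpoint lay in that interval, a choice by position that used no score. By this rule the combined list for the replicate set held 338 regions at the base out of 21932 enriched regions in all, the list of ChIP replicate 1 held 96 out of 6699, and the list of ChIP replicate 2 held 147 out of 10048. None of the 5 regions that the combined list names as depleted lay there.

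The material was homogenized, formaldehyde-fixed tissue of wild-type Oregon-R larvae in the third instar, so each library mixes the cell types of the larva. Rabbit antibody Q2598, affinity purified, was made to the stretch from residue 320 to residue 419 of Su(var)3-9. The series has 4 libraries, 2 of ChIP DNA and 2 of input DNA; the values below come from the 2 ChIP lists and the combined list, and how input DNA entered the calling of regions is not stated. Whether separate batches of larvae were used for the ChIP libraries is not in the labels. The spread between replicates may therefore be technical, and with 2 libraries an exact sign-flip test cannot give a two-sided p below 0.5. No test was therefore run, and differences are set against the SD between the replicates.

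Su(var)3-9 is a histone methyltransferase that places methyl groups on histone H3 in heterochromatin, the compact, repeat-rich chromatin around the centromeres, where the modified histone is bound by the protein HP1. It was named for mutations that suppress position-effect variegation, the patchy silencing of a gene moved next to heterochromatin. In release 5 each large arm is an assembled sequence of mostly euchromatic DNA, and heterochromatic sequence assigned to an arm but not joined to it is kept apart, for 3R as the sequence 3RHet. The question asked here is whether the assembled base of 3R carries regions like those of the base of 3L and of 3RHet. The other possibility is regions like those of the remaining 25.9 Mb of 3R. The base of 3L is the 2 Mb across the centromere at the same distance from the end of its arm sequence (positions 22543558 to 24543557). The 2 bases are matched by that distance alone, and how much heterochromatin each holds was not measured.

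In covered share and median region length the base of 3R differed from the rest of its own arm by less than the spread between replicates, and in both it lay below the base of 3L and 3RHet in each library. Enriched regions covered 8.44% of it in replicate 1 and 13.7% in replicate 2, a mean of 11.1% ± 3.71 (SD, n = 2). Over the rest of 3R the shares were 7.79% and 13.8%, a mean of 10.8% ± 4.23 (SD, n = 2). The difference, base minus rest, was 0.289 percentage points ± 0.523 (SD, n = 2), smaller than the spread between replicates and of opposite sign in the 2 libraries. Covered shares of the base of 3L were 40.7% and 34.2%, which is 4.82 and 2.50 times the share at the base of 3R. The difference, 3R minus 3L, was −26.4 percentage points ± 8.32 (SD, n = 2). Sequence 3RHet was covered at 40.4% and 33.7%, which is 4.79 and 2.46 times the share at the base of 3R, a difference of −26.0 percentage points ± 8.48 (SD, n = 2). Both differences exceeded the spread between replicates, and the higher replicate at the base of 3R, 13.7%, lay well under the lowest value of the other 2, 33.7%.

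**Figure D1:**
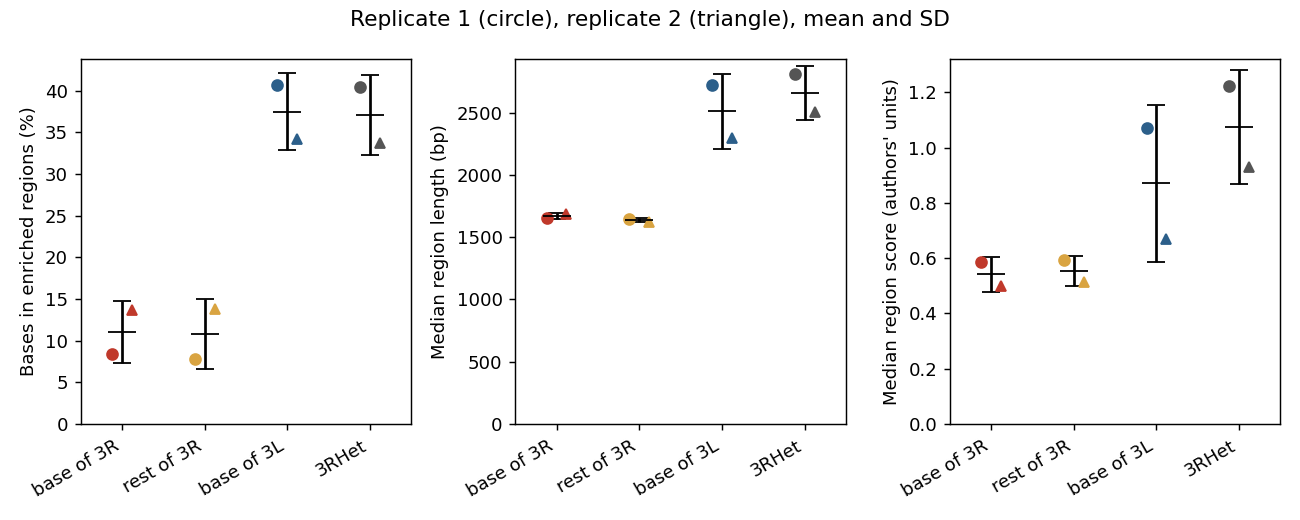
Share of bases in enriched regions (%), median region length (bp) and median region score (authors' units) at the base of 3R, on the rest of 3R, at the base of 3L and on 3RHet; circles are replicate 1, triangles replicate 2, bars the mean and SD over the 2 replicates. In all 3 panels the base of 3R sits beside the rest of 3R, and both lie below the base of 3L and 3RHet in each replicate.

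The order of the replicates at the base of 3R was that of the rest of the arm. Replicate 1 covered there 0.617 times the share that replicate 2 covered, and on the rest of 3R the ratio was 0.565. The opposite order was found at the base of 3L, with a ratio of 1.19, and on 3RHet, with 1.20. These ratios compare single libraries and have no error of their own. The lists carry no read counts, so the depth of the libraries is unknown and its part in these ratios was not tested.

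Regions at the base of 3R were short. Their median length was 1652 bp (replicate 1) and 1690 bp (replicate 2). The rest of the arm had medians of 1649 and 1624 bp, the base of 3L 2723 and 2297 bp, and 3RHet 2809 and 2505 bp. The difference from the base of 3L was −839 bp ± 328 (SD, n = 2) and that from 3RHet −986 bp ± 242 (SD, n = 2), while that from the rest of 3R was 34.5 bp ± 44.5 (SD, n = 2). In the combined list the longest region at the base of 3R measured 4823 bp, against 38520 bp at the base of 3L and 23709 bp on 3RHet. In the replicate lists the longest at the base of 3R measured 3655 bp (replicate 1) and 5126 bp (replicate 2). Those at the base of 3L measured 24058 and 22694 bp, and those on 3RHet 21746 and 18466 bp. Combined regions longer than 5 kb numbered 0 of 338 at the base of 3R, 61 of 307 (19.9%) at the base of 3L and 79 of 322 (24.5%) on 3RHet. The rest of 3R had 44 of 4763 (0.924%), so broad domains were rare along the arm as a whole.

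Their scores were low as well. The score is the authors' value for each region, on a scale the files do not name, so its values are compared between stretches of sequence within each list, and between lists only where stated. The median score at the base of 3R was 0.586 in replicate 1 and 0.498 in replicate 2. The rest of the arm had medians of 0.592 and 0.514, a difference, base minus rest, of −0.0112 ± 0.00788 (SD, n = 2), which is small but larger than the spread between replicates. Regions of the base of 3L had medians of 1.07 and 0.669, a difference, 3R minus 3L, of −0.329 ± 0.222 (SD, n = 2). On 3RHet they were 1.22 and 0.929, a difference of −0.534 ± 0.144 (SD, n = 2). The difference from the base of 3L exceeded the spread between replicates by the smaller margin, because it was −0.486 in replicate 1 and −0.172 in replicate 2.

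In the combined list the middle 50% of scores at the base of 3R ran from 0.327 to 0.405, with a median of 0.374 beside 0.376 on the rest of the arm. Scores above 1 were reached by 0 of 338 regions at the base of 3R, by 48 of 307 (15.6%) at the base of 3L, by 108 of 322 (33.5%) on 3RHet and by 17 of 4763 (0.357%) on the rest of 3R. Across regions, length and score went together weakly at the base of 3R (Spearman's rho 0.15 over 338 regions), on the rest of 3R (0.0882 over 4763) and in the whole list (0.23 over 21932), and more closely at the base of 3L (0.54 over 307) and on 3RHet (0.42 over 322). Regions of a list share their libraries and are not independent, so these coefficients are descriptions.

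**Figure D2:**
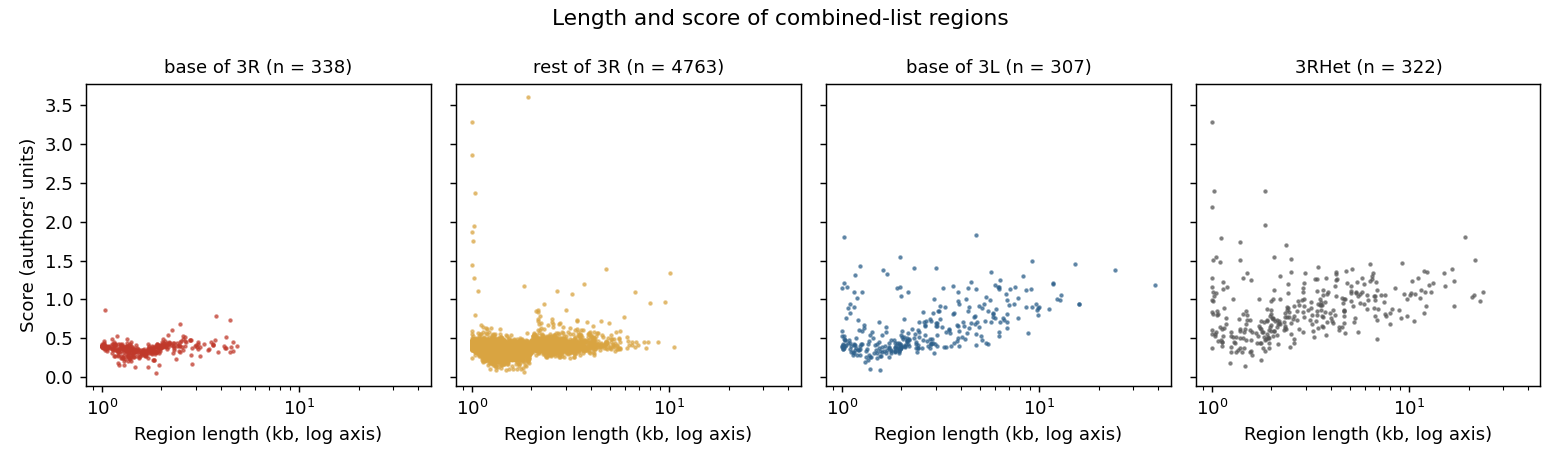
Length (kb, log axis) against score (authors' units) for every enriched region of the combined list, 1 point a region, at the base of 3R, on the rest of 3R, at the base of 3L and on 3RHet. At the base of 3R no region is longer than 4823 bp or scores above 0.863, whereas 3RHet holds 108 regions with scores above 1.

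Number of regions gave a different picture from covered share in the combined list. There the base of 3R had 169 regions per Mb, above the 154 of the base of 3L and the 128 of 3RHet, although it was covered at 30.1% against 53.8% and 51.9%. In the replicate lists the base of 3R had fewer regions per Mb than either, at 48.0 and 73.5 (replicates 1 and 2). The base of 3L had 101 and 107.5, and 3RHet 104 and 98.1. On the rest of 3R the density was 43.7, 74.9 and 184 regions per Mb in replicate 1, replicate 2 and the combined list.

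Within the base of 3R, coverage showed no steady rise towards the centromere. In windows of 100 kb the covered share ran from 1.58 to 23.3% in replicate 1, with a median of 7.09%, and from 4.92 to 23.5% in replicate 2, with a median of 12.6%. Replicate 2 was the higher in 18 of the 20 windows, and replicate 1 in 2. The windows of the base of 3L ran from 2.91 to 64.9% in replicate 1 (median 47.7%) and from 7.61 to 54.0% in replicate 2 (median 37.3%). Windows at matching distance from the end were higher on 3L in 19 of 20 cases in each replicate. The exceptions lay 1700 to 1800 kb from the end in replicate 1 (11.1% on 3R, 8.94% on 3L) and 1500 to 1600 kb from the end in replicate 2 (9.30% on 3R, 7.61% on 3L).

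The contrast with 3L was concentrated in the inner 1500 kb. The 15 windows of 3L within 1500 kb of the end, a limit chosen after the values were seen, were each covered at 37.3% or more in replicate 1 and at 26.6% or more in replicate 2. Every one of them exceeded the highest window of the base of 3R in the same replicate, 23.3 and 23.5%. From 1500 to 2000 kb the base of 3L fell to 10.4% in replicate 1 and 18.8% in replicate 2, beside 6.51% and 10.5% on 3R. Its 5 windows there ran from 2.91 to 14.7% in replicate 1, within the range of the base of 3R, and from 7.61 to 33.3% in replicate 2, partly above it. The 25 full windows of 3RHet had a median of 44.3% in replicate 1 and 32.7% in replicate 2, but their lowest values, 5.73 and 6.42%, fell within the range of the base of 3R.

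**Figure D3:**
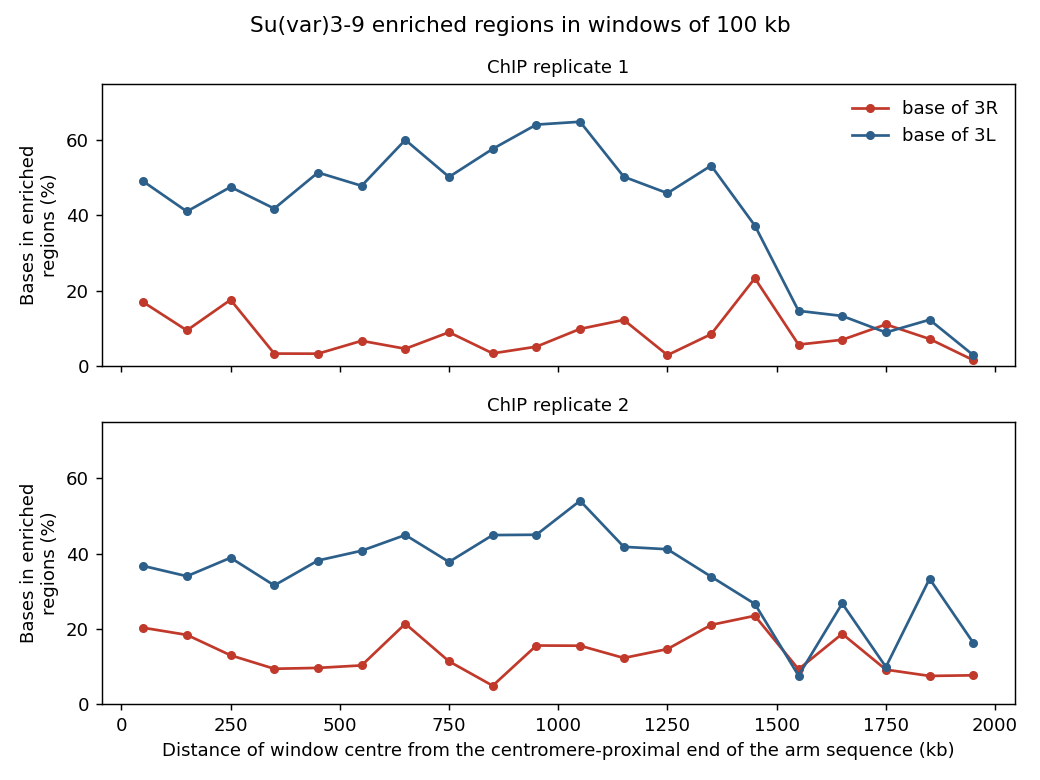
Share of bases in enriched regions (%) in windows of 100 kb, by distance of the window centre from the centromere-proximal end of the arm sequence (kb), for ChIP replicate 1 (top) and replicate 2 (bottom). The base of 3R stays at or below 23.5% throughout, while the base of 3L stays at or above 26.6% for its first 1500 kb. Beyond that 3L lies between 2.91 and 14.7% in replicate 1 and between 7.61 and 33.3% in replicate 2, where its higher windows are still above those of 3R.

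In bins of 500 kb, counted outwards from the end, replicate 1 covered 10.1, 5.77, 11.4 and 6.51% of the base of 3R, and replicate 2 covered 14.2, 12.7, 17.4 and 10.5%. The combined list covered 30.2, 26.1, 33.3 and 30.8%. The bin nearest the centromere was thus not the densest in any of the 3 lists; the bin from 1000 to 1500 kb was. The first 500 kb exceeded the next 1500 kb by 1.44 percentage points ± 1.15 (SD, n = 2), a difference of opposite sign when the base was split at 1000 kb (−0.7465) or only the top 50% of regions by score were kept (−0.620). Beyond the limit of the base the next bin, 2000 to 2500 kb, had covered shares of 6.97% and 11.9%, within the range of the bins inside it.

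Within the first 500 kb, coverage was uneven in a way the bins hide. The first 300 kb, a limit set after the values were seen, were covered at 14.7% in replicate 1, 17.2% in replicate 2 and 39.3% in the combined list. The stretch from 300 to 600 kb was covered at 4.44, 9.79 and 18.8%, and the remainder from 600 to 2000 kb at 7.97, 13.8 and 30.5%. The sparse stretch contains the 2 longest intervals of the base with no combined region, 63611 bp at 3R 384513 to 448123 and 36703 bp at 3R 486350 to 523052. The next 3 in length measured 25544 bp (848006 to 873549), 25261 bp (1016809 to 1042069) and 23648 bp (1773619 to 1797266). Empty intervals longer than 20 kb numbered 6 in the 2 Mb of the base of 3R, 5 in the 2 Mb of the base of 3L and 11 in the 2.52 Mb of 3RHet. The remaining 25.9 Mb of 3R held 73, the longest of 62.4 kb. The median spacing between combined regions was 2239 bp at the base of 3R, 2121 bp on the rest of the arm and 1606 bp at the base of 3L.

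Bases called in both replicate lists at once measured 72.2 kb, or 3.61% of the base of 3R, against 2.79% of the rest of the arm, 28.9% of the base of 3L and 28.8% of 3RHet. They made up 42.8% of the bases of replicate 1 and 26.4% of those of replicate 2 at the base of 3R, and 70.9% and 84.4% at the base of 3L. As a share of all bases called in at least 1 replicate (the Jaccard index), they came to 0.195 at the base of 3R and 0.149 on the rest of the arm, against 0.627 at the base of 3L and 0.637 on 3RHet. A higher covered share raises the overlap that chance gives, so these indices do not by themselves rank the 4 stretches of sequence by reproducibility.

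Bases shared by the replicates were most frequent in the windows at 1400001 to 1500000 (8.24%), 1 to 100000 (7.05%) and 100001 to 200000 (6.09%). The first of these, with 23.3% of its bases in regions of replicate 1 and 23.5% in regions of replicate 2, ranked 13th among the windows of 3R. By this measure no window of the base was among the 10 highest of the arm. The base holds only 20 of the 280 windows of 3R, the incomplete last window included. Its median window had 3.25% of bases shared, against 2.115% on the rest of 3R, and 13 of the 20 exceeded that median of the rest. Windows with no shared base numbered 2 of 20 at the base and 51 of 259 full windows on the rest. The windows of the base with fewest were 1200001 to 1300000 and 1900001 to 2000000, each with 0%, and 300001 to 400000 with 0.882%. Across the 20 windows the covered shares of the 2 replicates rose together moderately, with Spearman's rho 0.40 and Pearson's r 0.51, a description of windows that share their libraries.

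The 50 stretches of the base called in both lists had a median length of 1439.5 bp, and 0 of them reached 5 kb. On the rest of 3R the median was 1387 bp and 2 of 533 reached 5 kb, so such lengths were rare along the whole arm. At the base of 3L 27 of 177 did, and on 3RHet 38 of 235. The longest at the base of 3R measured 2561 bp, at 3R 1307171 to 1309731, with scores of 0.703 in replicate 1 and 0.491 in replicate 2. It was followed by 2343 bp at 1473529 to 1475871, whose region had a score of 1.42 in replicate 1, the highest of that list at the base, and 0.660 in replicate 2. Next came 2184 bp at 93 to 2276, at the centromere-proximal end of the arm sequence, with scores of 0.962 and 0.604. The remaining 7 of the 10 longest measured from 1876 to 2060 bp. They began at 1196463, 1056942, 875106, 1042180, 203734, 1748995 and 295870. Replicate 1 scores of these 7 ran from 0.615 to 0.971 and replicate 2 scores from 0.361 to 0.813. Of the 10 stretches 3 lay in the first 300 kb, and the other 7 lay between 875106 and 1750929.

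High scores were rare among the combined regions of the base, and 4 of the 338 reached 0.6, a limit set after the values were seen. The highest, 0.863 at 1992059 to 1993096, overlapped neither replicate list, and its 1038 bp are less than the shortest region of either replicate list, 1301 bp. The next were 0.784 at 873550 to 877344, 0.737 at 1473429 to 1477861, 0.683 at the very start of the arm (ending at 2477) and 0.599 at 1056813 to 1059090. All 4 of these overlapped a region in both replicate lists. The region at the start is given a first base of 0 in the combined list and was counted from base 1.

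None of the longest combined regions listed here was among the highest scoring named above, but the 2 sets were not far apart in every case. The highest-scoring regions, in the order named above, ranked 310, 12, 6, 47 and 61 in length at the base. The region of score 0.737, at 4433 bp, was thus next in length after those listed. The region at 117034 to 121856 (4823 bp) had a score of 0.405, that at 56610 to 61244 (4635 bp) 0.340, that at 1195899 to 1200524 (4626 bp) 0.453, that at 255779 to 260270 (4492 bp) 0.384 and that at 734096 to 738538 (4443 bp) 0.320. The second of these overlapped 2 regions of replicate 1 and 0 of replicate 2, and the other 4 overlapped both lists. At the outer limit of the base, the last members inside were 1994633 to 1996058 (score 0.386) and 1997859 to 2000691 (0.477), and the first regions outside were 2002749 to 2003776 (1.28) and 2017208 to 2018606 (0.367). The region of score 1.28 also overlapped neither replicate list and measured 1028 bp.

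**Figure D4:**
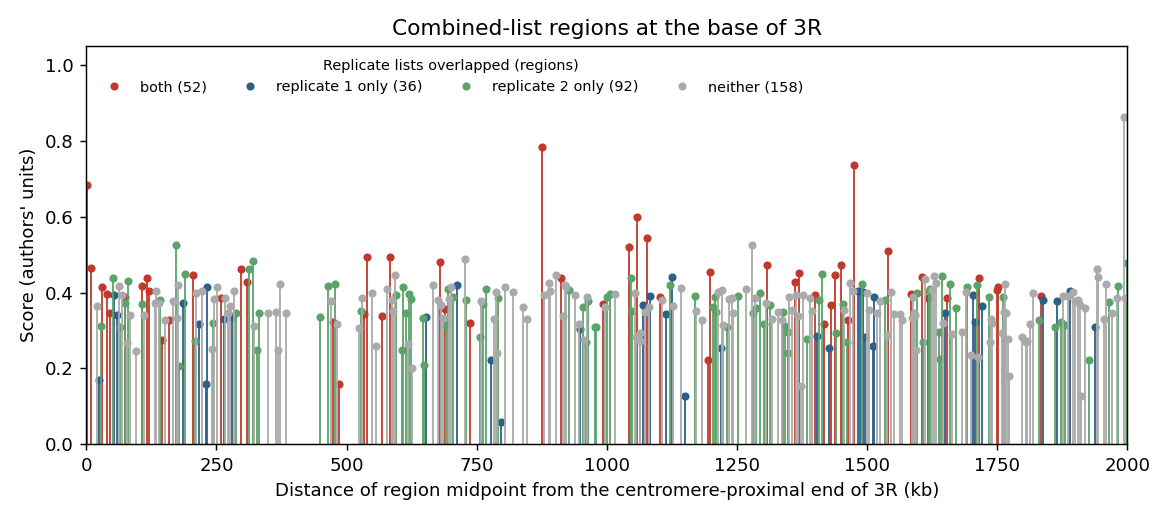
The 338 combined-list regions at the base of 3R by distance of the midpoint from the centromere-proximal end (kb) and score (authors' units), coloured by the replicate lists they overlap by at least 1 bp. Scores keep to a narrow band, with 4 regions at 0.6 or above spread from the start of the arm to the outer limit, and the empty interval of 63.6 kb shows as a blank within the first 500 kb.

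Of the 338 combined regions at the base of 3R, 52 (15.4%, 95% Wilson interval 11.9 to 19.6) overlapped a region in both replicate lists, close to the 15.6% of the whole combined list. A further 36 (10.7%) overlapped replicate 1 alone and 92 (27.2%) replicate 2 alone, beside 12.8% and 27.1% of the whole list. The 158 others (46.7%, interval 41.5 to 52.1) overlapped neither list, beside 44.4% of the whole list. On the base of 3L 45.6% of 307 regions overlapped both lists (interval 40.1 to 51.2) and 22.8% neither, and on 3RHet 54.0% of 322 overlapped both (48.6 to 59.4) and 22.7% neither. On the rest of 3R 10.6% of 4763 overlapped both (9.80 to 11.6), below the interval of the base of 3R. These intervals express counting error alone and treat neighbouring regions as independent, which they are not. Since all 3 lists come from the same libraries, the overlaps are descriptions and were not tested.

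**Figure D5:**
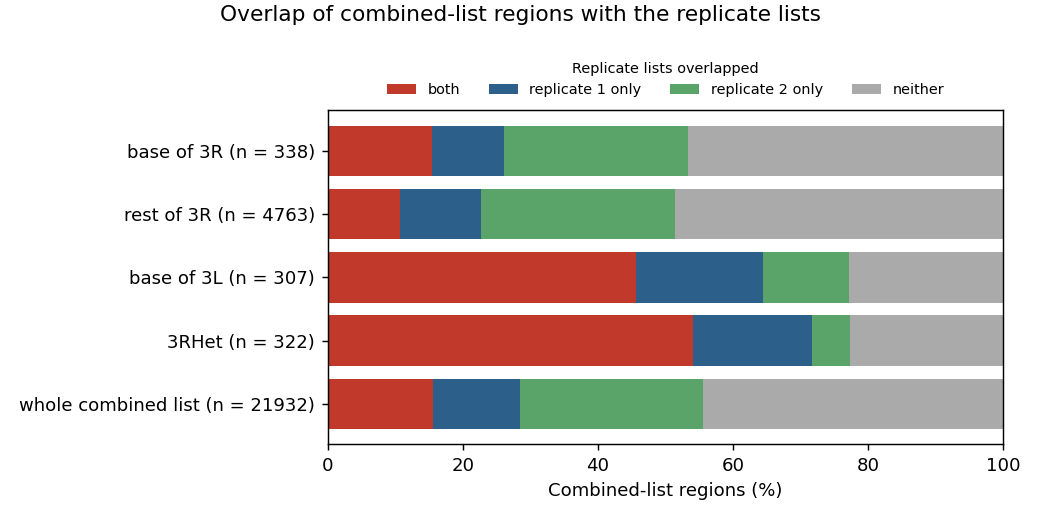
Share of combined-list regions (%) that overlap regions of both replicate lists, of replicate 1 only, of replicate 2 only or of neither, by at least 1 bp, at the base of 3R, on the rest of 3R, at the base of 3L, on 3RHet and in the whole combined list. Regions overlapping neither list make up 46.7% at the base of 3R and 22.8% at the base of 3L.

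Many of the regions outside both lists were short. There were 99 combined regions (29.3%) of the base that were shorter than 1301 bp, and 86 of these 99 overlapped neither list. Among the 239 at least that long, 72 (30.1%, 95% Wilson interval 24.7 to 36.2) overlapped neither, against 10.8% at the base of 3L (7.56 to 15.3), 13.5% on 3RHet (9.96 to 18.1) and 31.0% on the rest of 3R (29.4 to 32.6). Over the whole combined list the share was 26.7%, inside the interval of the base of 3R. Combined regions of the base overlapping both lists had a median length of 2504 bp and a median score of 0.415. Those overlapping neither had medians of 1278.5 bp and 0.367, a gap in score that is small beside the one on 3RHet, 0.957 against 0.740. These medians were not tested.

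Read from the replicate lists, 50 of the 96 regions of replicate 1 at the base of 3R (52.1%, 95% Wilson interval 42.2 to 61.8) had a partner in replicate 2, beside 53.5% over the whole list. Of the 147 regions of replicate 2, 50 (34.0%, interval 26.8 to 42.0) had a partner in replicate 1, beside 37.5% over the whole list. In replicate 2 regions with and without a partner had the same median score to 2 decimals, 0.497 and 0.498. In replicate 1 the medians were 0.611 and 0.575. Among the 50 overlapping pairs of the base, replicate 1 had the higher score in 43 (86.0%). It was also the higher in 79.5% of pairs on the rest of 3R, 96.6% at the base of 3L and 92.3% on 3RHet, so the offset between the lists is found in all 4 stretches. The scores of the pairs at the base of 3R were weakly related, with Spearman's rho 0.25 and Pearson's r 0.40. On the rest of 3R rho was 0.20 over 533 pairs, whereas it was 0.73 over 177 pairs at the base of 3L and 0.54 over 235 pairs on 3RHet. A region that overlaps several of the other list enters several pairs, so these coefficients are not strictly alike. Regions with a partner at the base of 3L numbered 144 of 202 (71.3%) in replicate 1 and 171 of 215 (79.5%) in replicate 2. On 3RHet they numbered 200 of 263 (76.0%) and 216 of 247 (87.4%). On the rest of 3R they numbered 504 of 1131 (44.6%) and 522 of 1941 (26.9%), lower shares than at the base of 3R. At the base of 3R they numbered 50 in each list. Scores at the base of 3R also spanned a narrower range, up to 1.42 in replicate 1 against 2.87 at the base of 3L, and the part of that range in the coefficients was not tested.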

How the data were processed

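ChIP-seq of Su(var)3-9 in larvae was analysed from 3 deposited region lists, for ChIP replicate 1, ChIP replicate 2 and the replicate set. Coordinates are FlyBase release 5, per the file headers. Column 6 holds a score per region that the authors assigned; its scale is not named. Per the submitters' processing notes, Bowtie 0.12.7 was used. How regions were called, at what threshold, with what use of input and how replicates were combined is not given in the sources used here, nor is read depth. Membership was by region midpoint; covered shares count bases in regions, clipped to the sequence length. Overlap required 1 bp. Groups follow the sample titles. Values are means and SD over 2 replicates; shares carry 95% Wilson intervals. The functions were checked on simulated lists. No gene is named and no sequence printed, because no annotation or genome of release 5 was used. The interval, comparisons and alternatives were chosen with earlier results of these data known. Named regions follow a rule: the 10 longest stretches in both lists, the 5 highest-scoring and 5 longest combined regions, those at the limits, the 5 longest empty intervals and the 3 windows with most and with fewest shared bases. Depleted regions were left out. Tools were Python 3.11.15 with pandas 2.3.3, NumPy 2.4.6, matplotlib 3.10.9 and SciPy 1.17.1.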

Additional observations from a re-analysis of the deposited data

How the results depend on the processing

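Of 55 alternatives over 8 results, 44 moved the value by less than the spread between replicates, or kept it within its Wilson interval. That count includes the alternatives that left out a replicate, which say nothing about stability. Dropping either of 2 values always moves their mean by less than their SD. The deficit against the base of 3L kept its sign in all 8 alternatives run for covered share (−34.5 to −19.2 percentage points) and all 7 for median score (−0.486 to −0.162). The deficit against 3RHet kept its sign in all 8 for covered share (−33.0 to −20.0) and all 5 for median score (−0.636 to −0.432). The covered share of the base, 11.1% as reported, was 30.1% in the combined list, 3.35% in the top 50% by score and 5.83% in the longest 50%; the last 2 keep fewer regions by construction. Leaving out a replicate gave 8.44 to 13.7%. The difference from the rest of 3R, 0.289 points as reported, kept its sign in only 3 of 8 alternatives. It was −2.10 in the combined list, −0.405 in the top 50% by score, −0.109 with a base of 1 Mb and −0.212 with a base of 3 Mb. Leaving out a replicate gave −0.0807 to 0.659. The excess of the first 500 kb, 1.44 points, was 0.167 in the combined list, −0.620 in the top 50% by score and −0.7465 when split at 1000 kb; leaving out a replicate gave 0.626 to 2.25. The share of combined regions in both lists, 15.4%, was 11.8% when 50% of both regions had to overlap, 21.8% among regions of at least 1301 bp and 27.3% in the top 50% by score. The causes of these changes were not tested. No paired analysis was possible because the groups that share replicate numbers, ChIP and input, were not compared; differences between stretches of sequence were already taken within each ChIP library. Since depth is unknown, a region missing from a list may have been undetectable there.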
